A study of Mus musculus with 108 samples.

Results

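The 35 genes described here carry out mitosis, from the condensation of chromosomes to the separation of daughter cells. They were taken by gene symbol from a list of mitosis genes that was drawn up with earlier results of these data known, and all 35 were found among the 49585 genes of the deposited count table. Transcripts were counted by RNA sequencing in myeloid cells sorted by fluorescence from mouse brains that carried lung-to-brain metastases. The libraries fall into 28 groups and cover 4 populations from tumours, which are microglia, bone marrow-derived macrophages (BMDM), inflammatory monocytes (Mono) and granulocytes (Gran). The study asked how these cells differ with tumour stage and after whole-brain radiotherapy.

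Radiotherapy followed either of a pair of schedules in tumour-bearing mice, as the labels record them. The first delivered 5 fractions of 2 Gy (5x2), with cells taken at day 3 (4 libraries of each population), day 5 (4 of each) and day 10 (3 of each), and the second 1 fraction of 10 Gy (1x10), with cells taken at day 3 (3 of each). The event from which the days count is not given in the labels. Unirradiated tumours were small (5 microglia, 5 BMDM, 4 Mono and 4 Gran libraries) or large (5 of each population). Irradiated tumours carry no stage in the labels, so each irradiated group was set against the mean of the small and large groups of its population, and these comparisons share their unirradiated libraries. Tumour-free mice gave microglia (4 libraries) and blood monocytes (4 libraries). Microglia of another 6 tumour-free libraries carry the 5x2 schedule and day 3 (3 libraries) or day 5 (3 libraries) in their titles while their radiotherapy field reads none; they are called titled 5x2 microglia below, and whether they were irradiated cannot be told from the labels. All mice were athymic nude mice of the Balb/C strain, listed as CAnN.Cg-Foxn1nu/Crl, so that every group, controls included, carries the Foxn1nu mutation and lacks a thymus and most T cells. The labels do not name the tumour cells. They also do not tie libraries to single mice, and a p-value here reflects how far libraries of a group differ, which may be technical variation alone.

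In a dividing cell, the kinase Cdk1 bound to cyclin A2 or a B cyclin drives entry into mitosis, and Aurora and Polo-like kinases build the spindle. The spindle checkpoint holds the anaphase-promoting complex back until every kinetochore is attached, and the complex then tags cyclin B for destruction so that the cell can divide. Most of these genes are transcribed late in the cell cycle, through the cell cycle genes homology region (CHR) and CCAAT boxes in their promoters, which are bound by the repressor DREAM in resting cells and by B-Myb, FoxM1 and NF-Y in cycling ones. Microglia renew themselves within the brain and are known to divide when the brain is injured or invaded, while blood monocytes and mature granulocytes have left the cell cycle.

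Promoter sequences from RefSeq (build GRCm38.p6; 250 bases before and 50 after each annotated start) were found for 31 of the 35 genes, with 33 promoters since Ect2 and Prc1 have 2 each; Aurkb, Ccna2, Kif20a and Tpx2 had no entry. The CHR motif TTTGAA, searched on both strands, occurred in 27 of the 33 promoters (81.8%, 25 genes), against 17.9% of all 32851 promoters of the same length. The CCAAT box, searched as CCAAT on both strands, occurred in 26 of the 33 (78.8%, 24 genes), against 37.4% of all promoters. Both motifs occurred in 69.7% of the members' promoters and in 6.95% of all promoters. In 23 genes a TTTGAA match lay within 60 bases of the start. Birc5, Nuf2 and Nusap1 held neither motif in this window. A match of letters describes the promoter and is not a measured binding site. The 100 bases before the start are shown for 6 genes, 4 that carry both motifs close to the start and that the results below turn on, then 2 whose levels went their own way among the populations (Kif23 and Cenpa). Matches to the motifs share no base with each other in these stretches. Capitals mark matches on either strand, TTTGAA or its reverse complement TTCAAA, and CCAAT or its reverse complement ATTGG.
Cdc20 (chr4:118437344-118437443, minus strand): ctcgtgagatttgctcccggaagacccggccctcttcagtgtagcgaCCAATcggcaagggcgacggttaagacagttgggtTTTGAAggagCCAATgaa
Kif11 (chr19:37376282-37376381, plus strand): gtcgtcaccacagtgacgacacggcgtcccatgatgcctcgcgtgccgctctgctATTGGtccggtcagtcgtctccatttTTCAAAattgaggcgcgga
Cdk1 (chr10:69352913-69353012, minus strand): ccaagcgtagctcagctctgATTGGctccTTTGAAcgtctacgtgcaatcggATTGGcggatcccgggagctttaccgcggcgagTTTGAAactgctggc
Top2a (chr11:99024190-99024289, minus strand): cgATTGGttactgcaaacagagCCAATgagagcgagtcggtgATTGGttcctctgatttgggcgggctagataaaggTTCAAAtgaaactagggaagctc
Kif23 (chr9:61946800-61946899, minus strand): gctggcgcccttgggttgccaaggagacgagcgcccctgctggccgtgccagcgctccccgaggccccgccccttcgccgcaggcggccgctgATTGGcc
Cenpa (chr5:30666786-30666885, plus strand): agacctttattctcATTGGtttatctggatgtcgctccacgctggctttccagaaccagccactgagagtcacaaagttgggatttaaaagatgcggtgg
In Kif23 and Cenpa the TTTGAA match lies just behind the start, outside the stretch shown, while the other 4 hold it before the start.

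**Figure D1:**
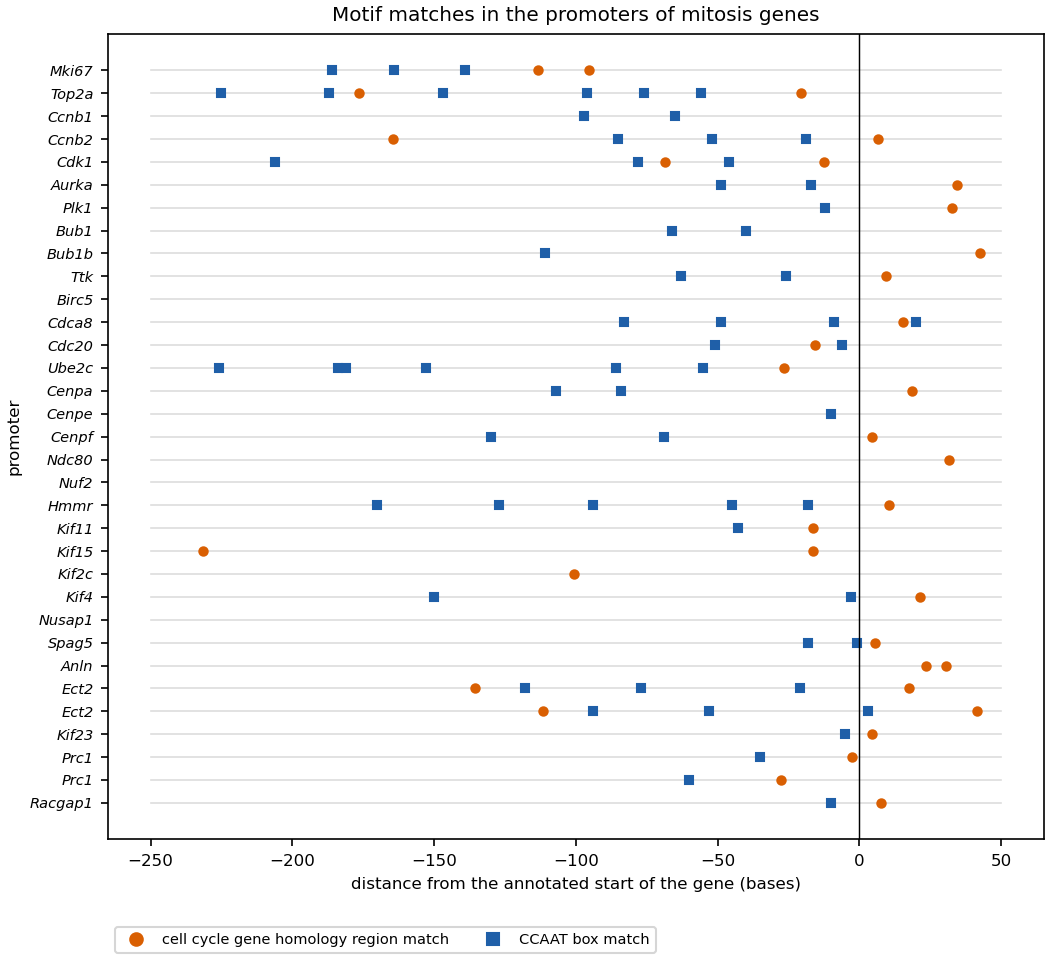
Positions of TTTGAA (orange circles) and CCAAT (blue squares) matches on either strand in 33 promoters of 31 mitosis genes. The x axis is the distance from the annotated start in bases and each grey line is 1 promoter of 300 bases; most circles lie within 60 bases of the start, and the lines of Birc5, Nuf2 and Nusap1 are empty.

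Libraries held 985423 to 18642747 counts (median 11362594), of which the 35 genes together took 16 to 15018 (median 2261). In 65 libraries every member had at least 1 count. Microglia and granulocytes carried the markers of their names. The summed level of 10 microglial markers had group medians from 13457 to 20831 CPM (counts scaled to library size) in microglia, against 2420 to 5701 CPM in BMDM. For the 8 granulocyte markers they were 23472 to 30471 CPM in granulocytes, against 270 to 1254 CPM elsewhere. BMDM markers were not highest in BMDM. In small tumours they summed to 2955 to 5103 CPM there, against 8978 to 11960 CPM in monocytes and 3562 to 8756 CPM in granulocytes. Monocyte markers overlapped, at 5912 to 8757 CPM in monocytes and 3040 to 10212 CPM in granulocytes of small tumours. Of all libraries, 11 were called doubtful, with under 3000000 counts or over 30000 genes detected. They include 2 of the 4 tumour-free microglial libraries and 3 of the 4 blood monocyte libraries, and results that rest on them are given with and without them. In sorted bulk cells, fewer dividing cells and less RNA per dividing cell cannot be told apart.

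The mean log2 CPM of the 35 genes (below, the mitosis mean) was highest in microglia 10 days after 5x2, at 4.71 ± 0.25 (SD, n = 3), and was next highest in microglia of small tumours, at 3.75 ± 0.70 (n = 5). It was lowest in granulocytes 3 days after 1x10, at −0.37 ± 0.18 (n = 3), and in titled 5x2 day 3 microglia, at −0.29 ± 0.23 (n = 3). These granulocyte libraries held 8, 12 and 9 members at 0 counts. Their summed CPM of the 35 genes averaged 269, against 40.4 in titled 5x2 day 3 microglia. Between the highest and lowest groups, neighbours in the order of the mitosis mean mostly lay within 1 SD of each other. Microglia at day 5 after 5x2 had 3.73 ± 1.33 (n = 4) and microglia of large tumours 3.18 ± 1.25 (n = 5). The BMDM groups lay between 1.46 ± 1.10 (1x10 day 3, n = 3) and 3.08 ± 0.41 (5x2 day 10, n = 3), monocytes of tumours between −0.02 ± 1.02 (5x2 day 5, n = 4) and 0.80 ± 0.38 (small, n = 4). Of the 35 genes, 31 had their highest group mean of CPM in microglia at day 10 after 5x2, Racgap1 and Ttk in blood monocytes, Kif23 in granulocytes and Cenpa in monocytes.

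**Figure D2:**
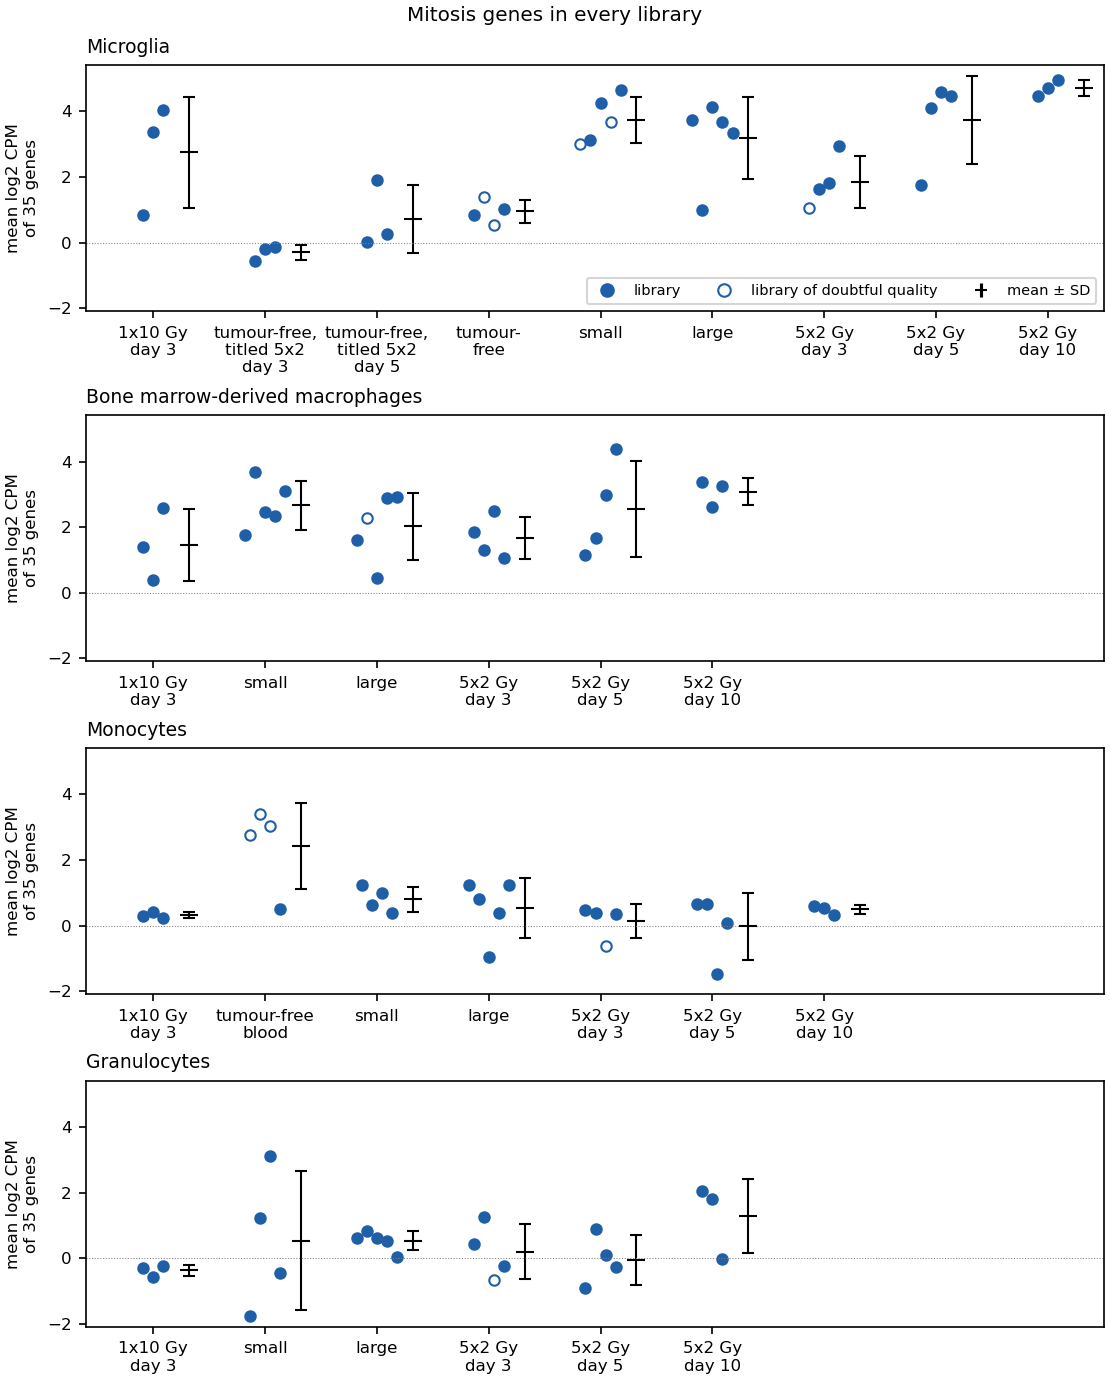
Mean log2 CPM of the 35 mitosis genes (y axis) in each library, by population and group; filled points are libraries, open points libraries of doubtful quality, bars the mean ± SD. The 3 microglial libraries at day 10 after 5x2 lie at 4.46, 4.72 and 4.96, and those at day 3 between 1.04 and 2.94.

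Microglia of small and of large tumours carried more mitosis transcripts than tumour-free microglia. Of the 35 genes, 21 rose in microglia of small tumours and none fell (edgeR quasi-likelihood test, Benjamini-Hochberg adjusted p under 0.05), where 7.55% of the 19754 genes tested were called higher and 7.82% lower. All 35 fold changes were above 0, with a median log2 fold change of 2.47, against −0.03 over all genes tested. In large tumours 20 rose and none fell, where 11.7% of genes were called higher and 20.2% lower, and the median was 1.92, against −0.26 over all genes. All 20 of these were among the 21 of small tumours; both comparisons use the same 4 tumour-free libraries. The mitosis mean was 3.0, 3.14, 4.25, 3.69 and 4.64 in microglia of small tumours and 3.73, 1.00, 4.15, 3.68 and 3.34 in those of large tumours, against 0.85, 1.38, 0.55 and 1.02 in tumour-free microglia. The groups did not overlap for small tumours, and for large tumours 1 library lay inside the tumour-free range. Gene by gene, the libraries did not overlap in 21 members in small tumours, as in 4.65% of all genes, and in 6 members in large tumours (Aurka, Aurkb, Ccna2, Cenpa, Kif2c and Kif11), as in 9.2%. An unadjusted p under 0.05 was reached by 26 members in small and 22 in large tumours, as by 13.3% and 16.2% of genes in the higher direction.

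Mki67, the Ki-67 coat protein of mitotic chromosomes (chr7:135689784-135716361), had 19.6, 24.3, 62.9, 36.8 and 56.6 CPM in microglia of small tumours and 28.1, 6.32, 56.4, 33 and 27.2 CPM in those of large tumours, against 2.37, 7.64, 20.0 and 3.23 CPM in tumour-free microglia. The highest tumour-free library thus lay above the lowest of small tumours, and Mki67 rose in small tumours by a log2 fold change of 2.31 ± 0.72 (SE; adjusted p = 0.0286), while in large tumours it was 1.78 ± 0.71 (adjusted p = 0.0548). The call in small tumours was lost with RLE scaling (adjusted p = 0.0587), with the groups fitted alone (0.147), with voom (0.158) and without any of 5 single libraries (tumour-free replicate 1, 2 or 4, small-tumour replicate 3 or 5; 0.0535 to 0.0753). In large tumours Mki67 passed without tumour-free replicate 3 (adjusted p = 0.0147) or large-tumour replicate 2 (0.0345). Top2a, the topoisomerase that untangles sister chromatids, had 23.7, 24.7, 88.5, 36.3 and 79.2 CPM in small tumours, against 3.49, 7.74, 1.72 and 6.20 CPM in tumour-free microglia. These groups did not overlap, and Top2a rose by 3.22 ± 0.78 (adjusted p = 0.00522) in small tumours and by 2.53 ± 0.76 (adjusted p = 0.0129) in large ones.

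Of the cyclins and their kinase, Ccna2 and Ccnb1 rose and Ccnb2 and Cdk1 did not pass the test, at either stage. Ccna2, cyclin A2 of S phase and early mitosis, rose by 3.98 ± 0.90 (adjusted p = 0.00295) in small and 3.70 ± 0.89 (adjusted p = 0.0032) in large tumours. Ccnb1, cyclin B1, had 4.42, 9.41, 14.7, 8.23 and 18.9 CPM in small tumours, against 1.12, 1.55, 0 and 1.37 CPM in tumour-free microglia, and rose by 3.18 ± 0.86 (adjusted p = 0.0120). Cdk1 had 17.9, 13.5, 45.3, 22.5 and 63.2 CPM in small tumours, against 5.98, 3.0, 32.7 and 6.51 CPM, and its fold change of 1.48 ± 0.60 did not pass (adjusted p = 0.0884). A single tumour-free library, replicate 3, carried the 32.7 CPM, and without it Cdk1 passed (2.65, adjusted p = 0.00165).

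Among the mitotic kinases and the checkpoint, Aurka, Bub1 and Bub1b rose at both stages, and Plk1 and Ttk did not pass. Aurka, the Aurora kinase of spindle poles, rose by 2.97 ± 0.63 (adjusted p = 0.0018) in small and by 2.55 ± 0.63 (adjusted p = 0.00366) in large tumours. Plk1, the Polo-like kinase, averaged 11 ± 7.06 CPM in small tumours and 1.63 ± 1.22 CPM in tumour-free microglia (SD, n = 5 and 4), a fold change of 2.54 ± 0.95 (adjusted p = 0.0688). Bub1b, the checkpoint protein BubR1, had 8.32, 11.4, 19.6, 13.5 and 29.9 CPM in small tumours, against 1.74, 1.84, 0 and 1.82 CPM. Its libraries did not overlap, and the fold change was 3.37 ± 0.83 (adjusted p = 0.00572) in small and 2.68 ± 0.81 (adjusted p = 0.0132) in large tumours.

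Both genes of the anaphase-promoting complex, the activator Cdc20 and the ubiquitin-conjugating enzyme Ube2c, rose at both stages. Cdc20 had 9.45, 17.4, 24.1, 16.5 and 36.3 CPM in small tumours and 16.4, 2.70, 17.2, 21.0 and 13.5 CPM in large tumours, against 2.49, 2.71, 0 and 1.99 CPM in tumour-free microglia. Small tumours did not overlap the tumour-free range, while 1 library of large tumours lay just inside it. The fold changes were 3.29 ± 0.77 (adjusted p = 0.00382) and 2.64 ± 0.75 (adjusted p = 0.00947). Of the chromosomal passenger complex, which corrects faulty attachments, Aurkb rose in small tumours (2.28 ± 0.66, adjusted p = 0.0173) and Birc5, which encodes survivin, did not pass (1.33 ± 0.94, adjusted p = 0.367). Birc5 again stood high in tumour-free replicate 3 alone, at 29.8 CPM, against 1.37, 1.16 and 1.99 CPM in the other tumour-free libraries. Without that library it passed (3.70, adjusted p = 0.00911).

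Of the 5 kinetochore genes, Cenpa, Ndc80 and Nuf2 rose, and Cenpe and Cenpf did not pass. Cenpa, the histone H3 variant that marks centromeres, had 20.5, 11.2, 25.4, 19.2 and 43.6 CPM in small and 28.9, 16.6, 24.5, 22.4 and 22.6 CPM in large tumours, against 2.74, 4.64, 0.573 and 3.63 CPM in tumour-free microglia. Neither stage overlapped the tumour-free range, and Cenpa rose by 2.87 ± 0.49 (adjusted p = 1.36e-04) and 2.69 ± 0.48 (adjusted p = 2.02e-04). Ndc80, which binds microtubule ends together with Nuf2, had 7.87, 5.05, 11.9, 6.73 and 17.0 CPM in small tumours, against 2.37, 0.194, 0 and 0.443 CPM, and rose by 3.58 ± 0.85 (adjusted p = 0.00433).

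The member with the smallest adjusted p at both stages was Kif2c, a kinesin that takes microtubules apart at kinetochores (chr4:117159639-117182639). It had 21.5, 23.2, 33, 19.7 and 28.8 CPM in small tumours and 41.9, 32.8, 23.6, 27.2 and 32 CPM in large tumours, against 1.37, 1.35, 0 and 2.08 CPM in tumour-free microglia. No library of a tumour came near the tumour-free range, and the fold changes were 4.12 ± 0.47 (adjusted p = 5.38e-07) and 4.32 ± 0.47 (adjusted p = 2.14e-07). Kif11, the motor that pushes spindle poles apart, had 6.15, 9.41, 20.3, 11.3 and 24.8 CPM in small tumours, against 0.374, 2.23, 0 and 0.797 CPM, and rose by 3.73 ± 0.84 (adjusted p = 0.00283). Nusap1, which bundles spindle microtubules, had the greatest fold change in small tumours among the 35, at 4.36 ± 0.96 (adjusted p = 0.00249). Of the other spindle genes Tpx2 rose, while Kif4, Kif15, Hmmr and Spag5 did not pass.

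Of the 6 cytokinesis genes, Kif23, Ect2, Racgap1 and Prc1, which together build the central spindle and place the contractile ring, rose at both stages. Kif23 had 6.37, 4.91, 15.4, 11.6 and 19.7 CPM in small tumours, against 0.996, 1.65, 0.573 and 0.532 CPM in tumour-free microglia. Anln, the ring protein anillin, did not pass (0.39 ± 0.88, adjusted p = 0.828), nor did Kif20a (adjusted p = 0.456). Anln had 4.65, 4.01, 19.3, 7.96 and 11.3 CPM in small tumours, against 1.25, 2.13, 24.6 and 1.46 CPM, so that replicate 3 of the tumour-free libraries lay above every library of small tumours.

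That tumour-free replicate 3 was the shallowest library, with 985423 counts, of which 442 fell on members. It held 14 members at 0, among them Ccnb1, Bub1b, Cdc20, Kif11 and Kif2c, where 0 counts allow up to 1.72 CPM (3 counts), and 9 members at 15.5 CPM or more. With the doubtful libraries left out (2 of 4 tumour-free and 2 of 5 small-tumour libraries), 18 members rose in small and 13 in large tumours. When the compared groups were fitted alone, 11 rose in small and 6 in large tumours. Limma with voom and quality weights, a test added after the data were seen, called 2 members at each stage, Kif2c and Cenpa (DESeq2 22 and 19). In every one of these settings no member fell. Markers of other cells also differed between these groups. Of 10 astrocyte markers, 8 fell in small and 7 in large tumours. Their summed level ran from 135 to 363 CPM in small and from 172 to 424 CPM in large tumours, against 983 to 1609 CPM in tumour-free microglia. The 11 oligodendrocyte markers summed to 164 to 234 CPM in small tumours, against 350 to 449 CPM. The 5 epithelial markers, which tumour cells could carry, summed to 1.52 to 10.8 CPM in small and 0.346 to 5.22 CPM in large tumours, against 0.249 to 13.4 CPM in tumour-free microglia. BMDM markers summed to 104 to 414 CPM in small and 258 to 716 CPM in large tumours, against 79.1 to 245 CPM. Only the large tumours did not overlap the tumour-free range. Monocyte markers overlapped at both stages, at 34.7 to 133 CPM and 33.6 to 392 CPM, against 13.1 to 131 CPM. The part of these cells in the result was not tested.

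Related gene lists were counted beside the 7.55% of all genes called higher in small and the 11.7% in large tumours. Of 53 other mitosis genes, 18 rose and none fell in small tumours (median log2 fold change 1.70), and 16 rose and 1 fell in large tumours (median 1.05). Tacc3, which stabilises spindle fibres, rose by 2.15 ± 0.40 (adjusted p = 4.44e-04) and Cep55, needed for the final cut between daughter cells, by 4.11 ± 0.79 (adjusted p = 5.91e-04) in small tumours. Of 40 DNA replication genes, 12 rose and none fell in small tumours, and 12 rose and 1 fell in large tumours (medians 1.02 and 0.88). They include Rrm2, a subunit of ribonucleotide reductase, at 3.68 in small and 3.49 in large tumours. Of 16 genes of the G1 to S transition, 3 rose in small and 5 in large tumours and none fell, Ccne1 (cyclin E1) by 3.46 (adjusted p = 5.36e-04) and E2f1 by 2.57 in small tumours. Of 16 regulators of the mitosis genes, such as Foxm1, DREAM subunits and NF-Y, 1 rose in small and 2 in large tumours and none fell (medians 0.22 and 0.21), and their summed level overlapped, at 317 to 560 CPM in small and 463 to 517 CPM in large tumours, against 238 to 543 CPM in tumour-free microglia.

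Foxm1, a transcription factor of the G2 and M phases, had 5.25, 8.65, 13, 11.9 and 24.3 CPM in small and 12.8, 4.21, 11.6, 13.6 and 6.29 CPM in large tumours, against 5.23, 1.74, 0 and 2.30 CPM in tumour-free microglia. It rose by 2.32 ± 0.51 (adjusted p = 0.00225) and 1.83 ± 0.50 (adjusted p = 0.00738). Mybl2, which encodes B-Myb, did not pass in small tumours (1.09, adjusted p = 0.377). Cdkn1a, the inhibitor p21 that p53 induces, rose as well: it had 218, 248, 539, 321 and 388 CPM in small tumours, against 68.9, 64.9, 14.9 and 96.0 CPM, a fold change of 2.47 ± 0.36 (adjusted p = 2.34e-05), and in large tumours 2.63 ± 0.37 (adjusted p = 7.05e-06).

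Per transcript length, the most abundant members in microglia of small tumours were Ccnb2, Cdc20 and Ube2c, at 13.3, 11.1 and 6.85 RPKM (CPM per kilobase of transcript). The least abundant were Anln, Kif15 and Cenpf, at 1.04, 0.867 and 0.717 RPKM. At day 10 after 5x2 the same 3 led, with Ccnb2 at 24.2 ± 3.20, Cdc20 at 19.5 ± 2.89 and Ube2c at 12.2 ± 2.12 RPKM (SD, n = 3).

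Between the stages no member passed the test in microglia. Of the 35 fold changes of large over small tumours, 34 were below 0, with a median of −0.55, against −0.09 over all genes, and edgeR called no gene of the 19754 in either direction (0% each way). No member had an unadjusted p under 0.05, where 0.962% of all genes had one in the higher and 11.5% in the lower direction, and DESeq2 and voom also called 0. The second library of large tumours lay apart from the other 4 of its group in most members: its Mki67 was 6.32 CPM against 27.2 to 56.4 CPM in the others, its Top2a 4.21 CPM against 32.8 to 58.9 CPM, and its Plk1 0.337 CPM against 6.14 to 14 CPM. Kif2c was no lower there, at 32.8 CPM.

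**Figure D3:**
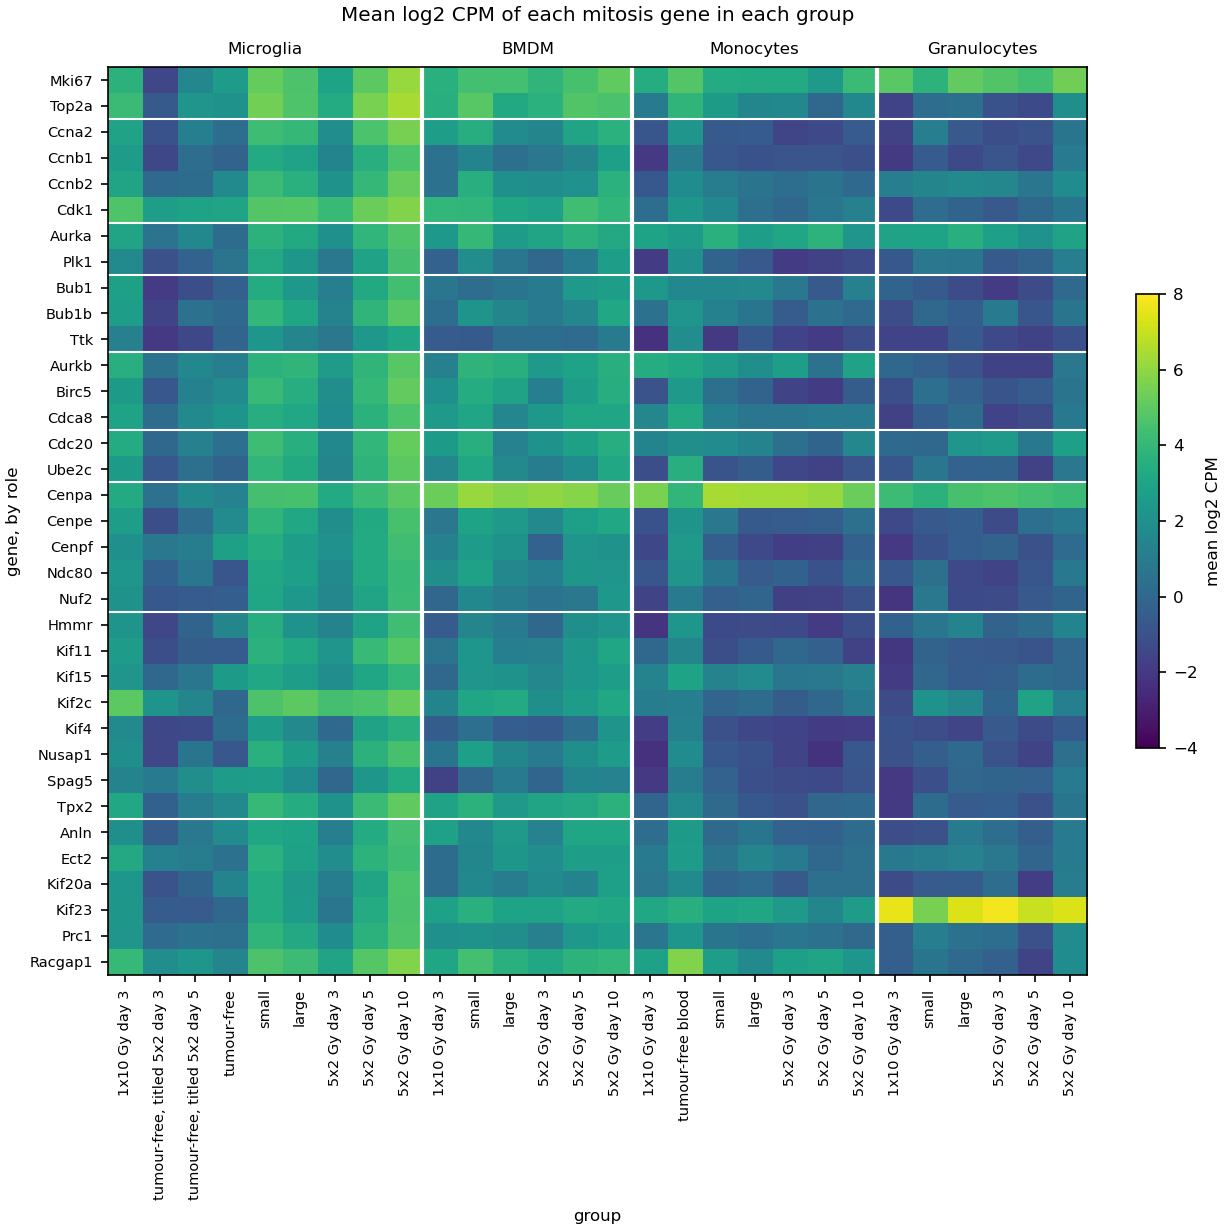
Mean log2 CPM (colour) of each of the 35 mitosis genes (rows, ordered by role) in each of the 28 groups (columns, by population). The column of microglia at day 10 after 5x2 is the brightest in every gene but Kif23, brightest in granulocytes, Cenpa, brightest in monocytes, and Racgap1, brightest in blood monocytes.

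In microglia of irradiated tumours the mitosis genes had fold changes below 0 at day 3 after 5x2 and above 0 at day 10, but none passed the adjusted test. At day 3 all 35 genes were below unirradiated tumours, with a median log2 fold change of −1.75 (range −2.65 to −0.33), against 0.01 over all genes. No member was called by edgeR, where 0.0607% of genes were called higher and 0% lower; 29 members had an unadjusted p under 0.05 in the lower direction, as 0.992% of all genes did. DESeq2 called 1 member lower and voom 0. At day 5 the median was 0.38, with 32 genes above 0 (0 called, where 0.0354% of genes were called higher; 0 with an unadjusted p under 0.05, where 0.921% of genes were higher and 1.81% lower; DESeq2 and voom 0). At day 10 all 35 were above 0, with a median of 0.98 (0 called, where 0.00506% of genes were called higher; 1 unadjusted, Nuf2, as 1.76% of genes; DESeq2 and voom 0). At day 3 after 1x10 the median was −0.50 and 34 genes were below 0 (0 called, where 0.101% of genes were called higher; 1 unadjusted, Cenpa, as 6.03% of genes in the lower direction; DESeq2 0 and voom 1). The mitosis mean differed from unirradiated tumours by −1.60 at day 3, 0.27 at day 5 and 1.25 at day 10 after 5x2, and by −0.70 after 1x10, and the libraries overlapped in each.

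Mki67 had 4.58, 4.98, 6.72 and 22.1 CPM at day 3, 8.60, 44.4, 58.1 and 45.1 CPM at day 5, and 70.8, 74.7 and 64.0 CPM at day 10 after 5x2, against 6.32 to 62.9 CPM (median 30.6, n = 10) in unirradiated tumours. Every library at day 10 lay above every unirradiated one, while at day 3 all 4 lay below the unirradiated median. The fold change was −1.86 ± 0.63 at day 3 (unadjusted p = 0.00616, adjusted p = 1). Cdc20 showed the same order, with 1.11, 1.69, 3.62 and 9.26 CPM at day 3, 2.52, 19.9, 31.3 and 31.0 CPM at day 5 and 32.6, 34.2 and 42.7 CPM at day 10, against 2.70 to 36.3 CPM (median 16.8, n = 10). At day 3 its fold change was −2.13 ± 0.66 (unadjusted p = 0.00292, adjusted p = 1). Top2a had 3.08, 9.03, 10.8 and 36.5 CPM at day 3 and 71.5, 79.2 and 109 CPM at day 10, against 4.21 to 88.5 CPM (median 35.9, n = 10).

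Kif23, which with Racgap1 forms the centralspindlin of the dividing bridge, had the largest fold change at day 3, −2.65 (unadjusted p = 7.68e-04, adjusted p = 0.562). Its values were 0.869, 1.18, 1.55 and 2.65 CPM at day 3 and 21.2, 25.0 and 25.0 CPM at day 10, against 0.843 to 19.7 CPM in unirradiated tumours. Kif2c moved least, with 15.4, 30.6, 19.3 and 25.2 CPM at day 3, against 19.7 to 41.9 CPM, a fold change of −0.33. Cdk1 had 5.92, 18.8, 20.8 and 32 CPM at day 3 and 42.2, 56.4 and 60.2 CPM at day 10, against 11.3 to 63.2 CPM in unirradiated tumours. At day 10, 6 members (Nuf2, Kif23, Ccnb1, Kif15, Cdca8 and Mki67) did not overlap the unirradiated libraries, as did 0.982% of all genes in that direction.

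The libraries of day 10 were set directly against those of day 3. All 35 members were higher at day 10 in every library, as 6.71% of all genes were, with a median log2 fold change of 2.72 (range 0.68 to 3.84), against −0.11 over all genes. None was called by edgeR, which called 0% of genes in either direction; 34 had an unadjusted p under 0.05 (all but Kif2c), as 2.25% of all genes did in the higher direction. DESeq2 called 6 members and voom 12, and when the 2 groups were fitted alone edgeR called 18. Plk1 had 16.7, 20.0 and 32.3 CPM at day 10, against 0.869, 1.01, 1.55 and 4.14 CPM at day 3 (log2 fold change 3.52 ± 1.02, adjusted p = 0.730). Bub1b had 20.2, 30.5 and 42.7 CPM at day 10, against 1.18, 1.18, 3.25 and 7.22 CPM at day 3, and Anln 15.4, 18.6 and 32.1 CPM, against 1.18, 1.77, 1.33 and 5.43 CPM. For Ndc80 the values were 17.0, 18.9 and 16.9 CPM at day 10, against 1.18, 2.45, 4.21 and 6.91 CPM at day 3. Mean Mki67 was 69.8 ± 5.38 CPM at day 10 and 9.59 ± 8.39 CPM at day 3 (SD, n = 3 and 4), a fold change of 2.79 ± 0.75 (adjusted p = 0.631).

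The 2 schedules were compared at day 3. After 1x10 the 3 microglial libraries spread widely, with Mki67 at 3.08, 18.5 and 36.1 CPM, Cdc20 at 3.15, 14.6 and 22.4 CPM and Kif11 at 1.05, 10.1 and 16.5 CPM, against 4.58 to 22.1, 1.11 to 9.26 and 2.80 to 9.07 CPM after 5x2. The median log2 fold change of 1x10 over 5x2 was 1.22, with 34 genes above 0, against −0.13 over all genes. None was called by edgeR (0% of genes in either direction), DESeq2 or voom; 5 had an unadjusted p under 0.05 (Kif23, Ect2, Cdc20, Spag5 and Bub1), as 0.891% of all genes did in the higher direction.

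Targets of p53, the factor that DNA damage activates, did pass the test in irradiated microglia. Of 23 such genes, 5 rose at day 3, 3 at day 5 and 1 at day 10 after 5x2, and 7 at day 3 after 1x10, against unirradiated tumours, and none fell; over all genes, 0.0607%, 0.0354%, 0.00506% and 0.101% were called higher. Cdkn1a had 1212, 1427, 1073 and 1161 CPM at day 3, 1275, 848, 791 and 1343 CPM at day 5 and 753, 688 and 615 CPM at day 10 after 5x2, and 1503, 1224 and 1315 CPM after 1x10, against 218 to 539 CPM in unirradiated tumours. Every irradiated library lay above every unirradiated one. Cdkn1a rose by 1.69 ± 0.28 at day 3 (adjusted p = 0.00293), 1.44 ± 0.28 at day 5 (adjusted p = 0.0423) and 1.72 ± 0.30 after 1x10 (adjusted p = 0.00396), while at day 10 it was 0.78 ± 0.31 (adjusted p = 0.909). Phlda3, a p53 target that restrains Akt, rose by 3.98 ± 0.45 at day 3 (adjusted p = 1.13e-05), by 3.38 at day 5, by 3.49 at day 10 (adjusted p = 6.19e-04) and by 5.40 ± 0.48 after 1x10 (adjusted p = 3.25e-08). Ccng1 (cyclin G1) rose by 1.67 ± 0.23 (adjusted p = 2.99e-04) and Mdm2, which degrades p53, by 1.02 ± 0.17 (adjusted p = 0.00267) at day 3.

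The 53 other mitosis genes had a median log2 fold change of −1.05 at day 3, 0.37 at day 5 and 0.76 at day 10. The DNA replication list had medians of −0.18, 0.62 and 0.72. Foxm1 had 4.11, 5.83, 5.09 and 4.94 CPM at day 3 and 14.8, 17.9 and 33.8 CPM at day 10, against 4.21 to 24.3 CPM in unirradiated tumours, and passed at neither day (−1.14 and 0.93). The astrocyte list, which set tumour-free microglia apart, had medians of 211 CPM at day 3, 328 CPM at day 5 and 286 CPM at day 10, against 201 CPM in small and 198 CPM in large tumours. The summed markers of BMDM and monocytes also differed between these libraries. The 8 BMDM markers summed to 681 to 806 CPM at day 10, against 163 to 335 CPM in 3 of the day 3 libraries and 1238 CPM in the fourth, replicate 4, which also had the highest mitosis mean of day 3 (2.94). The 8 monocyte markers summed to 141 to 361 CPM at day 10, against 22.6 to 40.2 CPM in the same 3 libraries and 364 CPM in replicate 4. Of either list, no gene was called at day 10 against day 3, but edgeR called 0% of all genes there, so the lack of calls cannot set these lists apart. Their median log2 fold changes were −0.02 for BMDM and 1.64 for monocyte markers, and the part of these cells in the result was not tested.

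**Figure D4:**
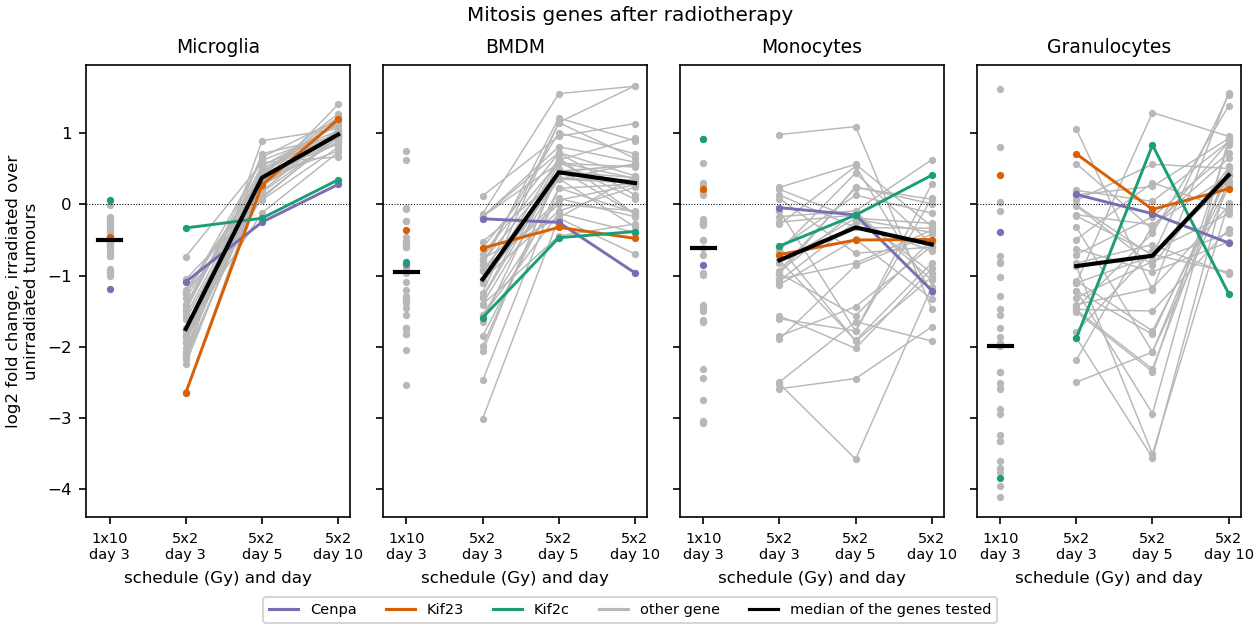
Log2 fold change of each mitosis gene in irradiated over unirradiated tumours (y axis) by schedule and day (x axis) in 4 populations; thin lines and points are genes, the black line or bar the median of the genes tested (35 in microglia and BMDM, 31 in monocytes, 33 in granulocytes). In microglia the median runs from −1.75 at day 3 through 0.38 to 0.98 at day 10.

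In tumour-free mice, titled 5x2 day 3 microglia had the lowest mean CPM of the 9 microglial groups in 32 of the 35 genes. Against the other tumour-free microglia, 5 members fell (Mki67, Cenpe, Kif15, Hmmr and Ttk) and 1 rose (Kif2c), where 0.825% of genes were called higher and 1.09% lower, and the median log2 fold change was −2.30, against −0.12 over all genes. Mki67 had 0.368, 0.0572 and 0.186 CPM in titled 5x2 day 3 microglia, against 2.37, 7.64, 20.0 and 3.23 CPM, a fold change of −5.34 ± 1.07 (adjusted p = 0.0236). Cenpe, a kinesin that carries chromosomes to the spindle equator, had 0.307, 0.630 and 0.0621 CPM, against 0.747, 4.84, 15.5 and 1.77 CPM (−4.10 ± 0.98, adjusted p = 0.0337). Kif2c went the other way, with 8.46, 8.87 and 1.12 CPM, against 1.37, 1.35, 0 and 2.08 CPM (1.99 ± 0.47, adjusted p = 0.0331). The libraries did not overlap in 10 members in the lower direction, as in 2.17% of all genes. At an unadjusted p under 0.05, 19 members were lower and 1 higher, as 16.8% and 8.65% of genes.

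These calls rested on few libraries. Leaving out single libraries gave 0 to 11 members lower: 0 without tumour-free replicate 3 and without titled 5x2 day 3 replicate 2 or 3, 2 without its replicate 1, and 11 without tumour-free replicate 1 or 4. Kif2c was not called without tumour-free replicate 3 or titled 5x2 day 3 replicate 1 or 2. Without the doubtful libraries, with the groups fitted alone and with voom, 0 were lower and 0 higher, while DESeq2 called 18 lower and 1 higher. In titled 5x2 day 5 microglia no member was called by edgeR (0.795% of genes called higher, 0.552% lower) or voom, 5 were lower at an unadjusted p under 0.05, as 15.1% of genes were, DESeq2 called 5 lower, the libraries of 1, Kif15, did not overlap, as 1.39% of genes, and the median was −0.59. Cdkn1a rose in both, to 641, 468 and 488 CPM at day 3 and 1510, 452 and 417 CPM at day 5, against 68.9, 64.9, 14.9 and 96.0 CPM (3.01 ± 0.40, adjusted p = 3.10e-04, and 3.57 ± 0.40, adjusted p = 1.22e-05). The 10 astrocyte markers summed to 573 to 3122 CPM in titled 5x2 day 3 and 1483 to 2637 CPM in titled 5x2 day 5 microglia, against 983 to 1609 CPM. The 11 oligodendrocyte markers did not overlap, at 587 to 741 CPM at day 3 and 487 to 750 CPM at day 5, against 350 to 449 CPM, and their part in the result was not tested.

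BMDM arise from monocytes that enter the brain. Their mitosis genes had lower levels than those of microglia in unirradiated tumours: 8 members fell and 1 rose, where 13.8% of genes were called lower and 16.1% higher, and the median log2 fold change was −0.93, against −0.04 over all genes. Prc1, which crosslinks the microtubules of the central spindle, averaged 4.53 ± 3.07 CPM in BMDM and 12.7 ± 5.32 CPM in microglia (SD, n = 10 each; −1.49 ± 0.34, adjusted p = 0.00224). Kif2c averaged 11.5 ± 8.02 CPM in BMDM and 28.4 ± 6.74 CPM in microglia (−1.32 ± 0.33, adjusted p = 0.00461). Kif20a (−1.56 ± 0.47, adjusted p = 0.015) and Bub1 (−2.30 ± 0.69, adjusted p = 0.0157) fell as well, and so did Spag5, Kif4, Anln and Ttk. With the replicate number as a block, Kif20a (−1.62, adjusted p = 0.0757) and Bub1 (−2.45, adjusted p = 0.0524) no longer passed, nor did they with voom (adjusted p = 0.0593 and 0.0807). Cenpa rose, with 70.6 ± 33.1 CPM in BMDM and 23.5 ± 8.61 CPM in microglia (1.59 ± 0.27, adjusted p = 1.76e-04). At an unadjusted p under 0.05, 15 members were lower and 1 higher, as 19.7% and 20.4% of genes. The count of members lower ran from 4 to 16 when single libraries were left out, with 16 without BMDM replicate 2 of small tumours, and was 5 without the doubtful libraries. That BMDM library had the highest Cdc20, Top2a and Birc5 of its group, at 44.1, 62.4 and 47.9 CPM, against 6.56 to 10.5, 13.1 to 49.7 and 1.65 to 25.7 CPM in the other 4.

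Within BMDM no member was called by stage or after radiotherapy. In large over small tumours the median was −0.89, against 0.04 over all genes; edgeR called 0% of genes in either direction, 4 members had an unadjusted p under 0.05 (Aurka −1.34, Top2a −1.29, Ndc80 −1.62 and Tpx2 −1.16), as 2.58% of genes did in the lower direction, and DESeq2 and voom called 0. Top2a had 9.34, 13.9, 1.22, 19.7 and 24.7 CPM in large tumours, against 13.1, 62.4, 26.7, 20.2 and 49.7 CPM in small ones, and the groups overlapped.

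After 5x2 the medians in BMDM were −1.05 at day 3, 0.45 at day 5 and 0.30 at day 10, and −0.95 after 1x10. None was called (0% of genes in either direction at the 3 days of 5x2; 0.0063% higher and 0% lower after 1x10). At an unadjusted p under 0.05, 3 were lower at day 3 (Cenpf, Birc5 and Ndc80; 3.4% of genes), 1 higher at day 5 (3.15% of genes), 1 lower at day 10 (2.86% of genes) and 2 lower after 1x10 (5.29% of genes). DESeq2 called 1 lower at day 3 and 0 in the other 3 comparisons, and voom 0 in all 4. Birc5 had 3.14, 1.70, 3.24 and 1.13 CPM at day 3 and 12.6, 6.44 and 16.3 CPM at day 10, against 1.65 to 47.9 CPM (median 9.17, n = 10) in unirradiated tumours. Cenpf, a large kinetochore protein of late G2, had 1.23, 0.324, 1.92 and 0.189 CPM at day 3, against 1.94 to 39.3 CPM (median 4.47, n = 10), and was the member whose libraries did not overlap there, as 0.063% of genes in the lower direction. At day 10 it was Kif20a, as 1.54% of genes in the higher direction. Mki67 had 22.6, 14.2, 19.8 and 6.79 CPM at day 3 and 39.9, 43.7 and 21.5 CPM at day 10, against 5.24 to 54.4 CPM (median 21.7, n = 10).

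Set against day 3, 34 of the 35 genes had a higher mean at day 10 in BMDM, with a median log2 fold change of 1.30, against −0.02 over all genes. None was called (0% of genes in either direction; DESeq2 and voom 0), and 3 had an unadjusted p under 0.05 (Anln, Birc5 and Cenpf), as 0.731% of genes did in the higher direction. The libraries did not overlap in 19 members in the higher direction, as in 3.8% of genes, and in 1, Cenpa, in the lower direction, as in 2.99%. Anln had 9.08, 6.11 and 10.4 CPM at day 10, against 1.23, 2.35, 4.11 and 2.45 CPM at day 3. 1x10 over 5x2 at day 3 gave a median of 0.02 (0 called, 0% of genes in either direction; 1 unadjusted, Anln, as 2.19% of genes in the higher direction; DESeq2 and voom 0), and the libraries of Anln did not overlap, as those of 3.19% of genes.

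The effect of radiotherapy was tested for a difference between BMDM and microglia as an interaction. No member was called at any time (0.00516% of genes called lower at day 3 after 5x2, 0% in every other direction and time), and DESeq2 and voom called 0. The median difference of the log2 fold changes, BMDM minus microglia, was 0.70 at day 3, 0.06 at day 5 and −0.74 at day 10 after 5x2, and −0.43 after 1x10. Kif23 at day 3 (2.03 ± 0.84, unadjusted p = 0.0202) and Cenpa at day 10 (−1.27 ± 0.57, unadjusted p = 0.0302) were the members under an unadjusted p of 0.05, as were 0.784% of genes in the higher and 0.789% in the lower direction at these days. At day 5 and after 1x10 there were 0, where 1.33% and 1.89% of genes were higher and 1.75% and 1.55% lower. Cdkn1a did differ at day 3 (−1.64 ± 0.28, adjusted p = 0.0149): in BMDM its fold changes were 0.08, 0.31 and −0.37 at days 3, 5 and 10 and 0.40 after 1x10, none called.

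Monocytes of tumours carried low levels of the mitosis genes. In unirradiated tumours, 18 members fell and 1 rose against tumour-free blood monocytes, where 15.7% of genes were called lower and 10.6% higher, and the median log2 fold change was −2.54, against −0.16 over all genes. Racgap1, the GTPase-activating partner of Kif23, averaged 5.86 ± 2.91 CPM in monocytes of tumours and 54.8 ± 14 CPM in blood monocytes (SD, n = 9 and 4), and fell by 3.57 ± 0.53 on the log2 scale (adjusted p = 5.14e-04). Every blood library, at 59.8, 35.1, 56.4 and 67.9 CPM, lay above every tumour library, of which the highest was 9.42 CPM. Hmmr (−5.68 ± 1.17, adjusted p = 0.00393), Anln (−2.74 ± 0.61, adjusted p = 0.0058) and Cenpf (−5.33 ± 1.19, adjusted p = 0.006) fell too. At an unadjusted p under 0.05, 25 members were lower and 1 higher, as 23.4% and 16.2% of genes, and the libraries did not overlap in 4 in the lower direction (Ube2c, Anln, Cdca8 and Racgap1) and in Cenpa in the higher, as in 2.53% and 7.06% of genes. Cenpa rose, with 85.6 ± 23.7 CPM in monocytes of tumours and 16.2 ± 7.21 CPM in blood monocytes (1.93 ± 0.38, adjusted p = 0.00328).

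In the mitosis mean this difference was carried by 3 blood libraries that were also the doubtful ones. Their mitosis mean was 2.76, 3.41 and 3.04, that of the fourth 0.52, against −0.97 to 1.23 in the 9 tumour libraries. In Racgap1, Ube2c, Anln and Cdca8 the fourth blood library also lay above every tumour library. Cenpf had 9.49, 34.9 and 15.6 CPM in the 3 and 0 CPM in the fourth, where 0 counts allow up to 0.242 CPM. Without the doubtful libraries, which leaves 1 blood library whose spread is taken to be that of the tumour groups, 0 members were called lower, Racgap1 was −3.51 (adjusted p = 0.0839), and Hmmr and Cenpf changed sign. Leaving out single libraries gave 5 to 27 members lower, with 5 without blood replicate 2; the test that takes the replicate number as a block gave 11, DESeq2 27 and voom 31. Markers of other blood cells moved with them: the 8 erythroid markers summed to 1157 to 7046 CPM in blood monocytes, with medians of 2.42 CPM in small and 0.912 CPM in large tumours. The 10 T and NK cell markers summed to 162 to 3644 CPM in blood monocytes, with medians of 12.4 and 1.43 CPM in small and large tumours. The part of these cells in the result was not tested.

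In monocytes of tumours, 31 members passed the filter on low counts (not Kif4, Nusap1, Ttk and Hmmr), and none was called by stage or radiotherapy by edgeR (0% of genes in either direction in each comparison). Medians were −0.02 for large over small tumours, −0.78, −0.32 and −0.56 at days 3, 5 and 10 after 5x2, and −0.61 after 1x10. At an unadjusted p under 0.05 there were 0 members by stage, where 1.81% of genes were higher and 2.09% lower, and 2, 4, 1 and 2 lower ones in these 4 irradiated groups, as 1.83%, 4.76%, 2.55% and 4.26% of genes. DESeq2 called 1 lower at day 10 and 0 elsewhere, and voom 2 lower at day 10, 3 lower after 1x10 and 0 elsewhere. Cenpa had 35.5, 39.3 and 37.9 CPM at day 10 and 44.3, 45.4 and 57.2 CPM after 1x10, against 59.0 to 120 CPM in unirradiated tumours, and was the member whose libraries did not overlap at either, as 0.446% of genes in the lower direction at day 10 and 0.906% after 1x10 (the day 10 fold change was −1.21, unadjusted p = 5.90e-04, adjusted p = 0.629). Day 10 over day 3 gave a median of 0.42 and 1x10 over 5x2 0.04, with 1 member, Cenpa, lower at an unadjusted p under 0.05 in each, as 0.803% and 0.927% of genes, and 0 called by edgeR, DESeq2 or voom. The libraries did not overlap in Cenpa for the first and in Ccnb2 for the second, as in 1.98% and 2.38% of genes in the lower direction.

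In granulocytes 33 members passed the filter (not Kif4 and Ttk), and none was called by edgeR. For large over small tumours the median was −1.52, against 0.20 over all genes, with 0% of genes called higher and 0.0141% lower; 7 members had an unadjusted p under 0.05 (Ccna2, Ndc80, Tpx2, Cdk1, Nuf2, Ube2c and Ccnb1), as 7.38% of genes did in the lower direction, and DESeq2 and voom called 0 (edgeR with RLE scaling 1). The mitosis mean did not show this difference, at 0.54 ± 0.29 in large and 0.54 ± 2.11 in small tumours (SD, n = 5 and 4). The difference of these means was 0.0017, and ran from −0.76 to 0.86 without single libraries. The small-tumour libraries differed among themselves: Cdk1 had 0, 2.68, 25.5 and 0 CPM and Top2a 0, 2.92, 23.2 and 0 CPM, against 0.181 to 2.0 CPM and 0.354 to 2.23 CPM in large tumours. The third library of small tumours alone was high, and in the first, which had 16 counts on members, 0 counts allow up to 1.60 CPM. The 14 granulocyte progenitor markers, genes of dividing precursors, summed to 10472, 1036, 4362 and 194 CPM in the small-tumour libraries in the same order, against 160 to 2490 CPM in large tumours. Their sum was thus highest in the first library, not in the third, and their part in the result was not tested.

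After 5x2 the medians in granulocytes were −0.87, −0.72 and 0.41 at days 3, 5 and 10, and −1.99 after 1x10, with 0% of genes called in either direction. At an unadjusted p under 0.05, 1, 3 and 0 members were lower at days 3, 5 and 10, as 2.35%, 4.67% and 2.04% of genes. After 1x10, 8 were lower, as 5.12% of genes. None was higher at day 10, where 1.28% of genes were. DESeq2 called 1 lower after 1x10 and 0 elsewhere, and voom 0. Kif2c was the lowest p among them after 1x10, with 0.296, 0.679 and 0 CPM, against 1.06 to 18.5 CPM in unirradiated tumours (−3.85, adjusted p = 0.772). Its libraries did not overlap, as those of 0.148% of genes in the lower direction. Day 10 over day 3 gave a median of 0.91 and 1x10 over 5x2 −1.50 (0 called by edgeR, DESeq2 or voom; 1 member higher at an unadjusted p under 0.05 in each, as 1.69% and 0.45% of genes). The libraries did not overlap in Bub1 and Ndc80 in the higher direction for the first, as in 6.32% of genes, and in Cdc20 in the lower direction for the second, as in 1.77%.

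Of the members, Kif23 and Cenpa had higher medians in another population than in microglia, and Mki67 had about the same in granulocytes. These levels are given as a description over the libraries from tumours (24 of microglia, 24 of BMDM, 23 of monocytes and 23 of granulocytes). Over the populations, 32 members had their highest median in microglia. Kif23 had a median of 166 CPM in granulocytes, against 11.3 CPM in microglia, 9.08 CPM in BMDM and 5.79 CPM in monocytes. It was at 97.2 to 195 CPM in 3 granulocyte libraries of small tumours, with 1.60 CPM in the fourth, and at 131 to 198 CPM in large ones, while its partner Racgap1 had a median of 0.832 CPM in granulocytes, against 24.3 CPM in microglia. Cenpa had medians of 67.5 CPM in monocytes and 51.6 CPM in BMDM, against 21.0 CPM in microglia and 22.1 CPM in granulocytes. Mki67 had 31.4 CPM in granulocytes and 30.6 CPM in microglia, 20.9 CPM in BMDM and 10.6 CPM in monocytes, whereas Top2a, Cdk1 and Plk1 had medians of 0.371, 0.489 and 1.13 CPM in granulocytes, against 37.0, 34.0 and 8.37 CPM in microglia. In 13 members a gene on the opposite strand overlaps the annotation, among them Mki67 (Gm45240), Top2a (Gm26394) and Cdc20 (Elovl1), and whether counting used strand is not given in the sources used here. Kif23 and Cenpa are not among the 13.

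**Figure D5:**
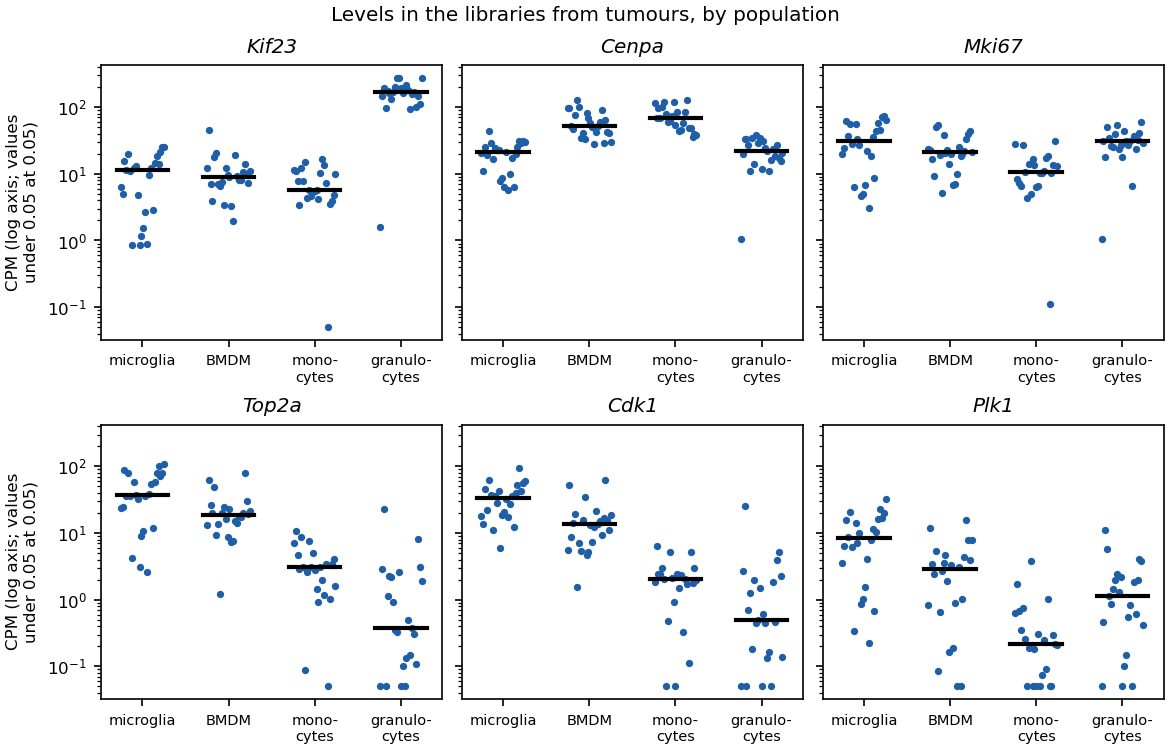
CPM (log axis, values under 0.05 drawn at 0.05) of 6 mitosis genes in the libraries from tumours, by population; points are libraries and bars medians. Kif23 stands at a median of 166 in granulocytes and Cenpa at 67.5 in monocytes, while Top2a, Cdk1 and Plk1 are highest in microglia.

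The members varied together across libraries. After the mean of each population was taken off, the median correlation of log2 CPM over the 595 pairs of members was 0.58 (range 0.14 to 0.86) across all libraries of the 28 groups. These values also hold differences between groups. Depth differed within groups, in tumour-free microglia from 985423 to 18642747 counts, and its part in the correlations was not tested. Within populations each member was also correlated with the combined level of the other members. Such values are not pairwise correlations and cannot be set beside the 0.58 of the pairs. Their median over the members was 0.91 in microglia, 0.72 in BMDM, 0.63 in granulocytes and 0.53 in monocytes. Like these medians, the values of the members with levels of their own were highest in microglia. Mki67 had 0.92 in microglia, 0.62 in BMDM, 0.43 in granulocytes and 0.69 in monocytes, the last above the median there. In the same order Kif23 had 0.97, 0.25, 0.41 and 0.51, and Cenpa 0.91, −0.03, 0.40 and 0.34. Outside the lists, the 10 genes most like the mitosis mean by this measure were Pimreg (r = 0.89), Ccnb1-ps (0.85), Gm12856 (0.84), Gm15428 (0.83), Zwilch (0.81), Pclaf (0.80), Fam83d (0.80), Knstrn (0.78), Shcbp1 (0.77) and Prr11 (0.76). Zwilch is a kinetochore protein of the checkpoint, and Pclaf binds the replication clamp. Ccnb1-ps is named as a pseudogene of the member Ccnb1, and reads of near-identical copies could be split between them. The other mitosis list had a median r of 0.65 with the mitosis mean, the DNA replication list 0.49, the G1 to S list 0.36, the 16 regulators 0.20 and all 28073 genes 0.11.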

How the data were processed

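RNA sequencing of sorted myeloid cells was deposited by the authors as 1 table of raw read counts per gene for 49585 genes in all libraries, with no normalization. Per the submitters' processing notes, the tools were FastQC, TopHat2 2.0.14, HTSeq and DESeq2 1.18.1 on build GRCm38; whether counting used strand is not given in the sources used here. The 37 mitochondrial genes hold 0 counts in every library, so RNA quality could not be read from them. Gene names and positions came from GENCODE M21, in which 49326 gene IDs matched.

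The 35 members and all lists were chosen with earlier results of these data known. The genes with values in the text were 1 member per role plus Top2a and Ccnb1, up to 4 members per direction and comparison with the smallest adjusted p past the threshold, up to 4 genes of each other list, Foxm1, Mybl2 and Cdkn1a, and the 10 genes most like the members; members described beyond these, such as Kif23, Cenpa and Kif2c where they did not pass, were picked after their values were seen.

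Counts were tested in R 4.3.3 with edgeR 4.0.16 (TMM scaling, quasi-likelihood test), after a filter on low counts (filterByExpr, minimum count 10, minimum total 15). P-values were Benjamini-Hochberg adjusted over all genes tested, with a threshold of 0.05. All libraries of a population were fitted together with 1 mean per group. Tumour monocytes against blood, and BMDM against microglia, were fitted on the unirradiated groups concerned. The interaction used all microglia and BMDM libraries of tumours. CPM values were scaled by TMM over all libraries, and log2 CPM used a prior count of 2. DESeq2 1.42.0 was an alternative, and limma 3.58.1 with voom and quality weights was added after the data were seen. Other alternatives were RLE scaling, no filter, the replicate number as a block, the compared groups fitted alone, each stage alone as the unirradiated group, a prior count of 0.5, and leaving out the doubtful libraries or each library in turn. The test was tried on simulated data in which genes of the lowest levels were not among those changed, and no result above rests on it. Libraries held 985423 to 18642747 counts. Upper limits for 0 counts use 3 counts and cover counting error only. Tables and figures were made with Python 3.11.15, pandas 2.3.3, NumPy 2.4.6 and matplotlib 3.10.9.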

Additional observations from a re-analysis of the deposited data

Results flagged for a closer look

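In 18 groups of 4 or 5 libraries, the mitosis mean of each library was set against the others of its group, and in 2 groups 1 library lay further off than Dixon's 95% critical value. Chance alone gives about 1 in 20 groups.

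Replicate 2 of microglia of large tumours had a mitosis mean of 1.00 log2 CPM, against 3.34 to 4.15 in the other 4, a gap of 0.744 of the group's range. It held 11133388 counts, 19063 detected genes and 1488 counts on members, and was not among the doubtful libraries. Its Kif2c, at 32.8 CPM, and Cenpa, at 16.6 CPM, lay above the 4 libraries of the tumour-free group, while its Plk1, at 0.337 CPM, lay below those 4.

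Replicate 3 of monocytes at day 3 after 5x2 had a mitosis mean of −0.63 log2 CPM, against 0.36 to 0.48 in the other 3, a gap of 0.892 of the range. It held 1165879 counts and 103 counts on members, and was among the doubtful libraries.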

How the results depend on the processing

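Of 76 counts of members called, 8 were above 0. Under other settings these 8 moved by over 1.5 times in 19 of 52 cases, and without single libraries in 20 of 98. Differences of the mitosis mean, each recomputed under several of the other settings, moved by less than the replicate SD in 134 of 136 cases. The cause was not tested. Members higher in microglia of small tumours (21) numbered 11 with the groups fitted alone, 2 with voom and 19 to 28 without single libraries; in large tumours (20) they numbered 13 without doubtful libraries, 6 with the groups alone, 2 with voom and 17 to 22 without single libraries. Day 10 over day 3 in microglia (0) gave 18 with the groups alone, 6 with DESeq2 and 12 with voom. In titled 5x2 day 3 microglia, members higher (1) numbered 0 with the replicate block, without doubtful libraries, with the groups alone and with voom, and 0 to 1 without single libraries. Members lower there (5) numbered 8 with RLE scaling, 1 with the block, 0 without doubtful libraries, 0 with the groups alone, 18 with DESeq2, 0 with voom and 0 to 11 without single libraries, and the difference of the mean was −1.57 with RLE scaling (reported −1.24). Titled day 5 members lower (0) numbered 5 with DESeq2 and 0 to 2 without single libraries. Tumour against blood monocytes (18 lower) gave 11 with the block, 0 without doubtful libraries, 27 with DESeq2, 31 with voom and 5 to 27 without single libraries; without doubtful libraries the difference of the mean was 0.16 (reported −1.76), Hmmr was 1.91 (adjusted p = 0.780) and Cenpf 5.78 (adjusted p = 0.494). BMDM against microglia (8 lower) gave 5 without doubtful libraries and 4 to 16 without single libraries. Calls of 0 lower became 1 with RLE scaling in granulocytes by stage, 1 with DESeq2 at day 3 after 5x2 in microglia and in BMDM, after 1x10 in granulocytes and at day 10 in monocytes, and with voom 1 after 1x10 in microglia, 3 after 1x10 in monocytes and 2 at day 10 in monocytes. Replicate numbers were not taken to pair the samples: within populations, all same-numbered libraries correlated above 0.1 in 1 of 48 pairs of groups, and across populations 17 of 24 microglia and BMDM pairs did (median r = 0.15; other medians 0.10 to 0.20), not all. The replicate block ended the calls of Kif20a and Bub1 in BMDM against microglia. In titled 5x2 day 3 microglia it ended those of Kif2c, Cenpe, Kif15 and Hmmr. It moved 3 counts of members by over 1.5 times. These were the members higher and those lower in titled 5x2 day 3 microglia, and those lower in tumour against blood monocytes, as given above. Monocyte and granulocyte libraries with few counts on members limit what could be detected there.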
